A study of Mus musculus with 8 samples.

Results

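The 10 genes described here encode the MHC class I heavy chains H2-K1, H2-D1, H2-Q4, H2-Q6, H2-Q7, H2-T22 and H2-T23, their light chain B2m, and the peptide loading proteins Tap1 and Tapbp. They were chosen by name, as the rows of these genes among the 22165 genes of the count table. The choice was made with earlier results of these data known. All 10 were among the 11079 genes that passed the filter on low counts. The study measured RNA of bone marrow-derived macrophages from C57BL/6 mice by counting reads from oligo-dT primed, strand-specific libraries, which lie near transcript 3′ ends. Cells of wild-type (WT) and Nrf2-/- mice (stock of the Jackson Laboratory, here the knockout) were grown for 7 days in medium with M-CSF, a macrophage growth factor. Cultures received no further treatment or 12 hours of 250 µM dimethyl itaconate (DI), an ester of the metabolite itaconate that enters cells and reacts with thiols. Each of the 4 groups (WT untreated, WT DI, knockout untreated, knockout DI) has 2 libraries. The knockout is carried by every cell of those mice, so it was present throughout differentiation. Whether a group's 2 libraries stem from separate mice or cultures is not in the labels, so p-values here reflect library-to-library spread that could be technical. NRF2, encoded by Nfe2l2, is the transcription factor that electrophiles such as DI activate through KEAP1.

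MHC class I molecules present peptides from inside the cell to CD8 T cells. A heavy chain pairs with beta-2-microglobulin in the endoplasmic reticulum, where the transporter TAP (Tap1 with Tap2) delivers peptides cut by the proteasome and tapasin (Tapbp) holds the empty heavy chain close to TAP until a peptide fits. H2-K1 and H2-D1 are the classical heavy chains of C57BL/6 mice. The Q and T genes are nonclassical: H2-Q7 is a source of the Qa-2 antigen, H2-T23 encodes Qa-1, which is read by the NKG2A receptor of natural killer cells, and H2-T22 is a ligand of some gamma-delta T cell receptors. Interferons raise these genes in many cell types through the interferon-stimulated response element (ISRE), NF-kappaB sites and the coactivator NLRC5.

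Total counts ranged from 5554288 to 15680671 per library, and the 10 genes held 0.875% to 2.59% of them. Nfe2l2 matched the labels: it had 1901 to 7022 counts in the WT libraries and 230 to 869 in the knockout libraries, with a log2 difference of -2.87 ± 0.34 (standard error) between knockout and WT in untreated cells (edgeR quasi-likelihood test, Benjamini-Hochberg adjusted p = 0.0019). All 8 macrophage markers had counts, with a summed level of 4902 to 5249 CPM (counts scaled to a common library size) in WT untreated, 4646 to 5051 in WT DI, 5879 to 6045 in knockout untreated and 3916 to 4472 in knockout DI cells. The sum hides opposite changes of single markers. With DI in WT cells 5 of the 8 had a log2 change below 0, 3 of them lower at an edgeR adjusted p under 0.05. Lyz2, in contrast, went from 1482 to 2191 CPM. In knockout cells all 8 were below 0 and 2 passed. Of all genes tested, 8.68% were called lower in WT and 4.0% in knockout cells. Of 7 stromal markers 6 had counts and Lum was at 0, and their summed level was 89.7 to 132 CPM in WT untreated, 107 to 119 in WT DI, 47.4 to 48.5 in knockout untreated and 44.3 to 44.7 in knockout DI cells. Summed neutrophil markers (8 of 8 with counts) were at 372 to 378 CPM in WT untreated, 250 to 319 in WT DI, 266 to 306 in knockout untreated and 245 to 302 in knockout DI cells. Over all libraries dendritic cell markers (8 of 8) lay between 6.19 and 12.6 CPM and lymphocyte markers (7 of 9, Klrb1c at 0) between 1.11 and 3.88 CPM. Mast cell and basophil markers (5 of 6, Mcpt4 at 0) lay between 0.628 and 4.06 CPM. The part of these cells in the differences below was not tested, and in bulk RNA fewer cells of a type cannot be told apart from less RNA per cell.

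Class I genes are close copies of each other, and the sources used here do not give how reads that fit several genes were counted. In the last 300 bases of each gene's longest coding transcript (GENCODE M21), the share of 50-base stretches found in a transcript of another gene was 0.797% for H2-K1, 17.1% for H2-D1, 45.4% for H2-Q4, 40.2% for H2-Q6, 49.4% for H2-T22 and 50.6% for H2-T23. It was 0% for H2-Q7, B2m, Tap1 and Tapbp. The shared stretches of H2-T22 all matched H2-T10, and most of those of H2-Q6 and many of those of H2-T23 matched genes outside the class I family, Efr3a for H2-Q6 (38.6%) and Rab33b for H2-T23 (31.1%). Over the whole transcript H2-Q6 shared 32% of its 50-base stretches and H2-Q7 34.9%, of which the pair shared 13.9% of H2-Q6 and 19.3% of H2-Q7. Values of H2-Q4, H2-Q6, H2-Q7, H2-T22 and H2-T23 are therefore uncertain as values of single genes. H2-D1, which shared 17.1% of its 3′ stretches and 14.3% over the whole transcript, is also open to shared reads.

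The 10 genes differ in the regulatory letters of their promoters, which are shown here because class I heavy chain genes and B2m are known to be driven from such elements. RefSeq windows (GRCm38.p6, the assembly of mm10) from 250 bases before to 50 bases after the start site existed for all 10, and for H2-K1, which has more than 1 annotated start, the first listed was used. Each stretch below is on the gene's own strand, ends before the start site and has in capitals the matches, on either strand, to the ISRE, the NF-kappaB consensus and the CCAAT box. The classical genes were read at chr17:34000348-34000462 (-) and chr17:35262919-35263045 (+), and the Q genes at chr17:35379439-35379566 (+), chr17:35424673-35424799 (+) and chr17:35439018-35439143 (+).
H2-K1: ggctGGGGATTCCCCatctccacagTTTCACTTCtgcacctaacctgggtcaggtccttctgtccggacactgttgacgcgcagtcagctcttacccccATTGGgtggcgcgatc
H2-D1: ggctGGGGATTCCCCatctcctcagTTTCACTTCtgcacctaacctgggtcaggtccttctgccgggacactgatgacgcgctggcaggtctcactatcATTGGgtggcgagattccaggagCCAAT
H2-Q4: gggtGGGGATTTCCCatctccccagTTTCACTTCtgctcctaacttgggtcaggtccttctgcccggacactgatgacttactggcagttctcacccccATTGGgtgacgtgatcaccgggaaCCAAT
H2-Q6: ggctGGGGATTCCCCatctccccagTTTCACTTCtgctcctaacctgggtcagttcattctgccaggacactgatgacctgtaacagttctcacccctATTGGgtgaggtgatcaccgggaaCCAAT
H2-Q7: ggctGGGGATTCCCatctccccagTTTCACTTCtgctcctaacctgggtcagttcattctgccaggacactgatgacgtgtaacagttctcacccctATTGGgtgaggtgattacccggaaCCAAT

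The T genes, read at chr17:36042801-36042959 (-) and chr17:36032749-36032829 (-), and B2m, read at chr2:122147544-122147638 (+), carry the longer form of the ISRE.
H2-T22: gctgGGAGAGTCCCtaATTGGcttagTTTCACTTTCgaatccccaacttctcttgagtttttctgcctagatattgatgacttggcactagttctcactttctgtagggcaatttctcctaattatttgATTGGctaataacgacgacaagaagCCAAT
H2-T23: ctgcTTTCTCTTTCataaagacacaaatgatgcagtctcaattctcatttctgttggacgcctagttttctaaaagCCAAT
B2m: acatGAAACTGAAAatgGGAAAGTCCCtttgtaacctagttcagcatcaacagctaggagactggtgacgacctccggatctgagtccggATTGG

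The full ISRE core (TTTCNNTTTC) was found in 3 of the 10 windows (H2-T22, H2-T23 and B2m) and in 3.44% of all 32851 windows of this length. A shorter form (TTTCNNTTC) was the ISRE match of H2-K1, H2-D1, H2-Q4, H2-Q6 and H2-Q7, and 7.52% of all windows held it. Matches to the NF-kappaB consensus were in 7 windows, all but those of H2-T23, Tap1 and Tapbp, against 8.46% of all windows. The CCAAT box was in all 10 windows (37.4% of all), and the core of the cyclic AMP response element (TGACG) was in 7 (20.8% of all), not in those of H2-Q6, H2-T23 and Tapbp. None of the 10 held the palindrome TGACGTCA (1.79% of all), and the core of the antioxidant response element to which NRF2 binds (TGACNNNGC) was in the windows of H2-K1 and H2-T22 (12.4% of all). The 2 ISRE forms share letters, as do the cyclic AMP and antioxidant cores, and a match is a description of letters, not a site in use. Tap1 is transcribed away from Psmb9, an immunoproteasome gene, and their windows overlap by 275 bases.

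**Figure D1:**
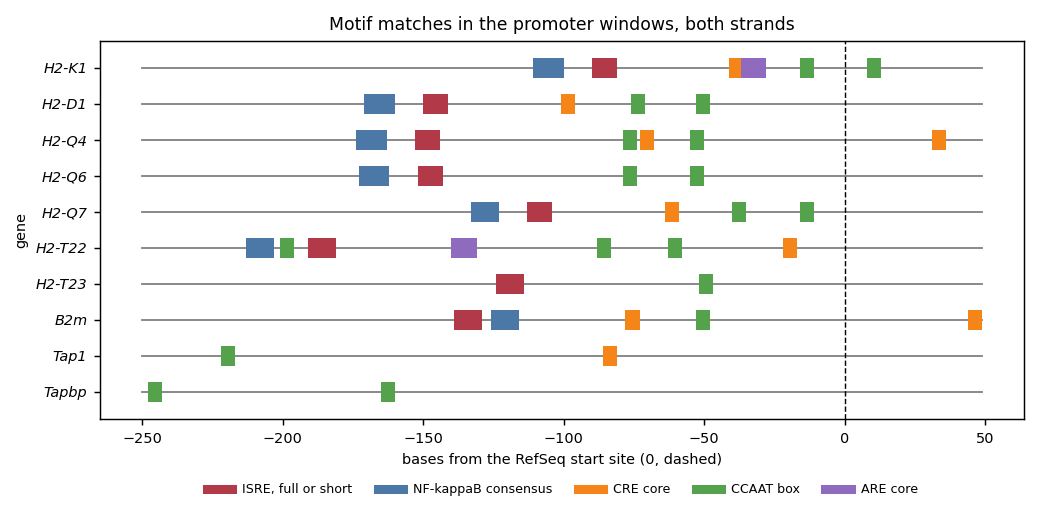
Positions of motif matches in the promoter windows of the 10 genes, in bases from the RefSeq start site (dashed line), with boxes coloured by motif. In H2-K1, H2-D1, H2-Q4, H2-Q6, H2-Q7 and H2-T22 the NF-kappaB match lies upstream of the ISRE match, in B2m the order is the opposite, and Tap1 and Tapbp have neither.

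DI lowered 2 of the 10 genes in WT cells, H2-Q7 and H2-T22, and 3 in knockout cells, H2-Q6, H2-T22 and B2m, and raised none in either genotype. These counts are calls of edgeR's quasi-likelihood test at an adjusted p under 0.05, and of all genes tested 8.68% were called lower and 6.51% higher in WT, and 4.0% lower and 4.49% higher in knockout. Under DI the knockout libraries were lower than the WT libraries for 3 genes, H2-K1, H2-D1 and H2-Q6 (9.74% of all genes called lower). The response to DI was called different between the genotypes for 1 of the 10, H2-Q6 (interaction, in which 2.59% of all genes were called lower and 4.96% higher). In untreated cells edgeR and DESeq2 each called 0 of the 10 between genotypes, and edgeR called 0.605% of all genes in either direction. An unadjusted edgeR p below 0.05 was reached by H2-Q7 and H2-T23, 2 of the 10. The share of all genes at that looser threshold is not given here, and the 0.605% is not its counterpart. The comparisons share libraries (the DI libraries of each genotype enter its DI response, the comparison of genotypes under DI and the interaction), so they do not support one another.

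**Figure D2:**
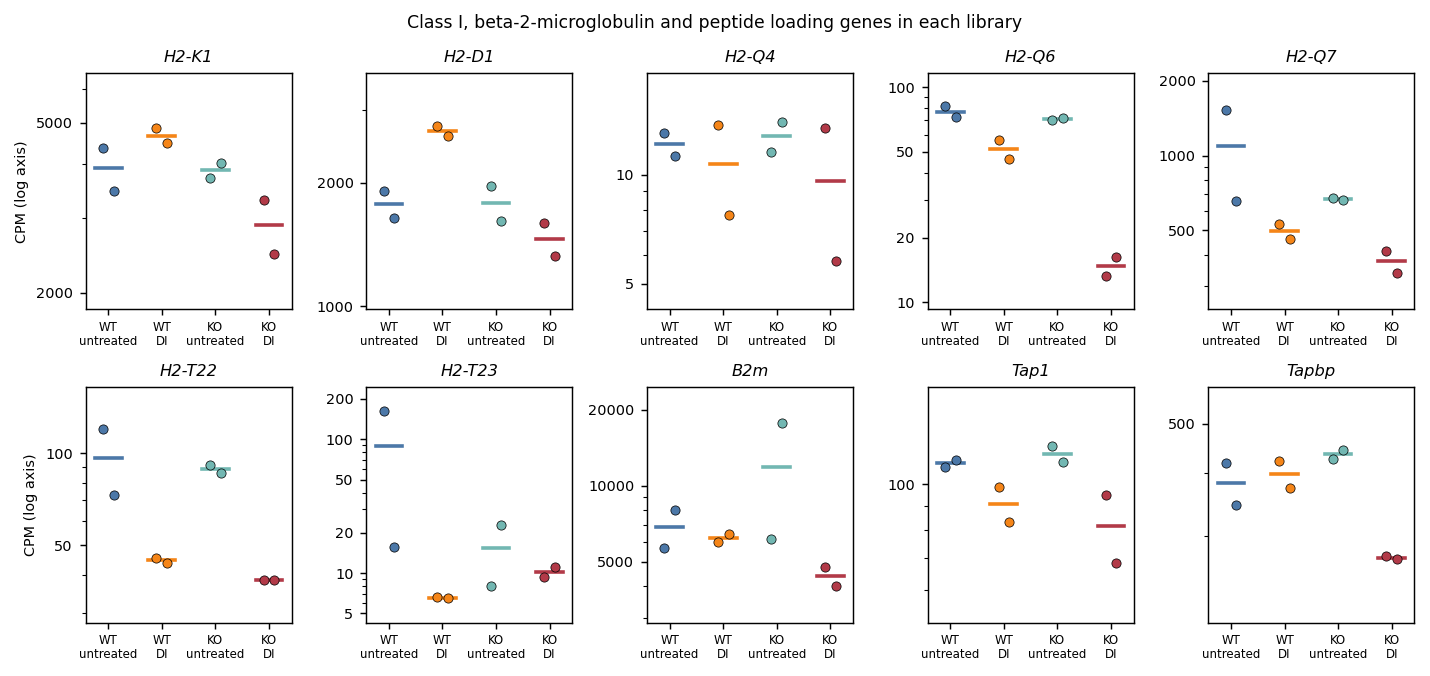
Level of each of the 10 genes in CPM (log axis, own scale in each panel), with a point for each of the 8 libraries and a bar at the group mean. The knockout DI libraries are the lowest for H2-K1, H2-D1, H2-Q6, H2-Q7, H2-T22, B2m and Tapbp, and 1 untreated library stands far above its partner for H2-T23, H2-Q7 (WT) and B2m (knockout). The share of all genes with the knockout DI libraries lowest is not given here, so these genes cannot be set against it.

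The classical heavy chains were higher in WT DI than in knockout DI cells. H2-K1 (chr17:33996017-34000347, minus strand) had 4374 and 3456 CPM in WT untreated, 4862 and 4481 in WT DI, 3723 and 4020 in knockout untreated and 3298 and 2462 in knockout DI cells. The untreated groups overlap, both WT DI libraries lie above them and both knockout DI libraries below them. Its level was 4672 ± 270 CPM in WT DI and 2880 ± 591 CPM in knockout DI cells (mean ± SD, n = 2), a log2 difference of -0.70 ± 0.23 (SE), 1.62-fold lower in knockout (edgeR adjusted p = 0.0489).

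H2-D1 (chr17:35262730-35267499, plus strand) had 1907 and 1636 CPM in WT untreated, 2742 and 2595 in WT DI, 1962 and 1614 in knockout untreated and 1591 and 1326 in knockout DI cells. Both WT DI libraries were the highest of the 8 and both knockout DI libraries the lowest, with untreated libraries of the genotypes intermixed. The level was 2668 ± 104 CPM in WT DI and 1458 ± 188 CPM in knockout DI cells (SD, n = 2), 1.83-fold lower in knockout (log2 -0.87 ± 0.22, edgeR adjusted p = 0.0159). The responses to DI themselves did not pass: the log2 fold changes of H2-K1 were 0.25 ± 0.23 in WT and -0.43 ± 0.23 in knockout cells, and those of H2-D1 were 0.59 ± 0.22 and -0.29 ± 0.22. The difference between these responses was -0.68 ± 0.32 for H2-K1 (edgeR adjusted p = 0.202) and -0.89 ± 0.31 for H2-D1 (edgeR adjusted p = 0.0986). The call for H2-K1 under DI was lost when any of the 8 libraries was left out (edgeR adjusted p = 0.0549 to 0.234), and that for H2-D1 was lost without knockout DI replicate 2 (edgeR adjusted p = 0.0884). With only the WT DI and knockout DI libraries in the fit, edgeR gave adjusted p = 0.119 for H2-K1 and 0.0561 for H2-D1.

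H2-D1 made up 30.4% and 32.1% of the summed H2-K1 and H2-D1 counts in WT untreated libraries, 36.1% and 36.7% in WT DI, 34.5% and 28.6% in knockout untreated, and 32.5% and 35.0% in knockout DI libraries. The 2 WT DI libraries had the highest shares, while the knockout groups overlapped. All 7 heavy chains summed to 8186 and 5921 CPM in WT untreated, 8256 and 7644 in WT DI, 6543 and 6492 in knockout untreated and 5379 and 4197 in knockout DI cells, with H2-K1 and H2-D1 holding most of the counts.

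Of the Q genes, H2-Q6 (chr17:35424850-35430055, plus strand) was the gene of the 10 whose response to DI was called different between genotypes. It had 81.4 and 72.5 CPM in WT untreated, 56.7 and 46.5 in WT DI, 70.2 and 72.1 in knockout untreated and 13.2 and 16.3 in knockout DI cells. Both knockout DI libraries lie far below all others, with 124 and 161 counts, and both WT DI libraries lie between them and the untreated libraries. The level fell from 71.1 ± 1.35 to 14.8 ± 2.18 CPM in knockout cells (SD, n = 2), 4.81-fold (log2 -2.27 ± 0.23, edgeR adjusted p = 0.000938). In WT cells it went from 77.0 ± 6.30 to 51.6 ± 7.22 CPM, a log2 change of -0.58 ± 0.22 that did not pass (edgeR adjusted p = 0.0945). The difference between the responses was -1.69 ± 0.32 (edgeR adjusted p = 0.00934), and under DI the knockout was 3.48-fold lower than WT (edgeR adjusted p = 0.000274). These 3 calls of H2-Q6 held when each of the 8 libraries was left out in turn.

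H2-Q7 (chr17:35439155-35443773, plus strand) had 1528 and 656 CPM in WT untreated, 530 and 463 in WT DI, 677 and 663 in knockout untreated and 415 and 338 in knockout DI cells. In both genotypes the DI libraries lie below the untreated ones without overlap, as did 29.3% of all genes in each genotype. WT untreated replicate 1 was 2.33-fold above its partner, a gap reached by 1.44% of the 7490 genes with a mean of at least 10 CPM. The fall in WT cells was 2.20-fold (log2 -1.14 ± 0.33, edgeR adjusted p = 0.0347), and the log2 change without WT untreated replicate 1 was -0.40 (edgeR adjusted p = 0.36). It was also not called without WT DI replicate 1, WT DI replicate 2 or either knockout untreated library, nor with only the WT libraries in the fit (edgeR adjusted p = 0.0577 to 0.152). In knockout cells the log2 change was -0.83 ± 0.32 (edgeR adjusted p = 0.129).

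H2-Q6 held 5.06% and 9.96% of the summed H2-Q6 and H2-Q7 counts in WT untreated, 9.67% and 9.12% in WT DI, 9.39% and 9.81% in knockout untreated, and 3.09% (95% exact interval 2.58% to 3.67%) and 4.60% (3.93% to 5.35%) in knockout DI libraries. Apart from WT untreated replicate 1, the WT and untreated libraries lay between 9.12% and 9.96%, and the knockout DI libraries were the lowest. The intervals cover counting error only. When the counts of H2-Q6 and H2-Q7 were added and tested as 1 gene, the sum, most of which is H2-Q7, had a log2 change of -1.09 in WT (edgeR adjusted p = 0.0348) and -0.92 in knockout cells (edgeR adjusted p = 0.0882). The responses of the sum differed by 0.17 (edgeR adjusted p = 0.838), a difference that was not called, with the opposite sign to that of the H2-Q6 row. Efr3a, which shares 3′ letters with H2-Q6, had log2 changes of -0.59 ± 0.26 in WT and -0.73 ± 0.26 in knockout cells, a difference of -0.14 ± 0.37 (edgeR adjusted p = 0.842). Cd59b, which also shares them (25.5% of the 50-base stretches), had only 1 to 17 counts per library. Its log2 changes were -1.03 ± 0.79 in WT and -3.04 ± 1.06 in knockout cells. They differed by -2.01 ± 1.37 (edgeR adjusted p = 0.368). The part of shared reads in the H2-Q6 values was not tested.

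**Figure D3:**
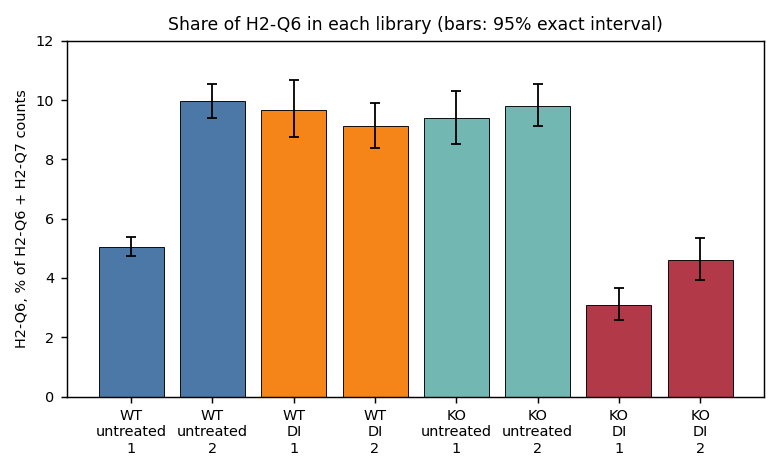
Share of H2-Q6 in the summed H2-Q6 and H2-Q7 counts of each library, in percent, with 95% exact (Clopper-Pearson) intervals for counting error. Both knockout DI libraries, at 3.09% and 4.60%, lie below the 6 others, and WT untreated replicate 1 lies at 5.06%.

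H2-Q4 (chr17:35379617-35385290, plus strand) was thinly covered, with 57 to 174 counts per library. It had 13.0 and 11.3 CPM in WT untreated, 13.7 and 7.73 in WT DI, 11.5 and 14 in knockout untreated and 13.4 and 5.78 in knockout DI cells. The groups overlap, since replicate 1 of each DI group was at the untreated level and replicate 2 below it. Its log2 changes were -0.20 ± 0.38 in WT and -0.42 ± 0.38 in knockout cells, and neither was distinguishable from 0 at this spread (edgeR adjusted p = 0.753 and 0.52).

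H2-T22 (chr17:36037128-36042747, minus strand) was the gene that DI lowered in both genotypes. It had 120 and 72.9 CPM in WT untreated, 45.4 and 43.8 in WT DI, 91.2 and 85.9 in knockout untreated and 38.5 and 38.4 in knockout DI cells. All 4 DI libraries lie below all 4 untreated libraries. The fall was from 96.4 ± 33.3 to 44.6 ± 1.14 CPM in WT (SD, n = 2), 2.16-fold (log2 -1.11 ± 0.25, edgeR adjusted p = 0.0114), and from 88.5 ± 3.75 to 38.5 ± 0.0914 CPM in knockout cells, 2.30-fold (log2 -1.20 ± 0.25, edgeR adjusted p = 0.0156). The responses differed by -0.09 ± 0.35 (edgeR adjusted p = 0.896). In WT cells the call was lost without WT untreated replicate 1 (log2 -0.71, edgeR adjusted p = 0.0923), WT DI replicate 1 (0.0567) or WT DI replicate 2 (0.0643). In knockout cells it was lost without knockout untreated replicate 1 (edgeR adjusted p = 0.111), knockout untreated replicate 2 (0.0861) or knockout DI replicate 1 (0.0813), with log2 changes of -1.15 to -1.24. H2-T10, with which H2-T22 shares its 3′ letters, had 15 to 96 counts per library and log2 changes of -1.54 ± 0.34 in WT (edgeR adjusted p = 0.00994) and -0.90 ± 0.33 in knockout cells (edgeR adjusted p = 0.111).

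H2-T23 (chr17:36029773-36032855, minus strand) differed widely between the untreated libraries of a group. It had 162 and 15.6 CPM in WT untreated (1857 and 241 counts), 6.60 and 6.52 in WT DI, 8.05 and 22.7 in knockout untreated and 9.39 and 11 in knockout DI cells. WT untreated replicate 1 stands 10.3-fold above its partner, a gap that 2 of the 7490 genes reached, this gene included, and knockout untreated replicate 2 stands 2.77-fold above its partner. The log2 change with DI was -3.76 ± 1.05 in WT (edgeR adjusted p = 0.0534; DESeq2 0.00835) and -0.62 ± 0.98 in knockout cells (edgeR adjusted p = 0.736). Without WT untreated replicate 1 the change in WT was -1.25 (edgeR adjusted p = 0.12), and without WT untreated replicate 2 it was -4.63 (edgeR adjusted p = 0.000562). With only the WT libraries in the fit edgeR gave adjusted p = 0.257. The sign in knockout cells turned to 0.35 without knockout untreated replicate 2. Between genotypes in untreated cells the log2 difference was -2.50 ± 0.97 (edgeR adjusted p = 0.425), and 0.01 without WT untreated replicate 1. Rab33b, which shares 3′ letters with H2-T23, had 7.17 and 5.24 CPM in WT untreated replicates 1 and 2 and 5.17 to 8.75 CPM over all libraries. The part of shared reads in the H2-T23 values was not tested.

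B2m (chr2:122147686-122153083, plus strand), the light chain that every class I molecule needs, had 5646 and 8005 CPM in WT untreated, 5999 and 6454 in WT DI, 6147 and 17634 in knockout untreated and 4754 and 4014 in knockout DI cells. The knockout DI libraries were the lowest of the 8, and knockout untreated replicate 2 was 2.87-fold above its partner, a gap that 0.187% of genes reached. The fall in knockout cells was 2.71-fold (log2 -1.44 ± 0.38, edgeR adjusted p = 0.0393), but without knockout untreated replicate 2 the log2 change was -0.48 (edgeR adjusted p = 0.476). The call was made in 1 of the 8 fits that left out a library, and with only the knockout libraries the adjusted p of edgeR was 0.0581. In WT cells the log2 change was -0.13 ± 0.38 (edgeR adjusted p = 0.841), and the responses differed by -1.31 ± 0.54 (edgeR adjusted p = 0.146). That difference was -0.35 without knockout untreated replicate 2 (edgeR adjusted p = 0.679) and -1.90 without knockout untreated replicate 1 (edgeR adjusted p = 0.039). The 162468 B2m counts of knockout untreated replicate 2 bring the share of the 10 genes in that library to 2.59%, against 0.875% to 1.46% in the others.

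Neither loading gene passed in the reported edgeR fit in any comparison. Tap1 (chr17:34187553-34197225, plus strand), the transporter subunit, had 109 and 113 CPM in WT untreated, 98.7 and 83.2 in WT DI, 120 and 112 in knockout untreated and 94.8 and 68.4 in knockout DI cells. All 4 DI libraries were below all 4 untreated libraries, but the log2 changes of -0.28 ± 0.23 in WT and -0.51 ± 0.23 in knockout cells did not pass (edgeR adjusted p = 0.435 and 0.184). Tap1 overlaps Psmb9 on the opposite strand, and the sources used here do not give whether counting used the strand.

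Tapbp (chr17:33915899-33929292, plus strand), which encodes tapasin, had 418 and 345 CPM in WT untreated, 422 and 373 in WT DI, 426 and 444 in knockout untreated and 274 and 270 in knockout DI cells. Both knockout DI libraries lie below the 6 others, and the WT groups overlap. The level was 435 ± 12.4 CPM in knockout untreated and 272 ± 2.71 CPM in knockout DI cells (SD, n = 2). The log2 change of -0.68 ± 0.21 missed the threshold in the reported edgeR fit (adjusted p = 0.0677) and passed in DESeq2 (adjusted p = 0.0282). Tapbp was called in 2 of 14 alternative fits of this comparison, DESeq2 and another that used edgeR. In WT cells the change was 0.06 ± 0.21 (edgeR adjusted p = 0.877), and the responses differed by -0.74 ± 0.30 (edgeR adjusted p = 0.141). Zbtb22, which overlaps Tapbp on the same strand, had 1219 counts over all libraries against 28549 of Tapbp.

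As a group, the 10 genes had a median log2 change with DI of -0.24 in WT cells (-0.02 over all genes tested) and -0.65 in knockout cells (0.00 over all genes). Fitted changes were below 0 for 7 genes in WT and for all 10 in knockout cells. In knockout cells 8 of the 10 had both DI libraries below both untreated libraries, against 29.3% of all genes, and in WT cells 5 did, against 29.3%. The genes with a change over 0 in WT cells were H2-K1, H2-D1 and Tapbp. The median difference between the responses was -0.45 (0.02 over all genes), that between genotypes was 0.00 in untreated cells (-0.01) and -0.45 under DI (0.01). The summed macrophage markers, given above, were also lowest in the knockout DI libraries.

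**Figure D4:**
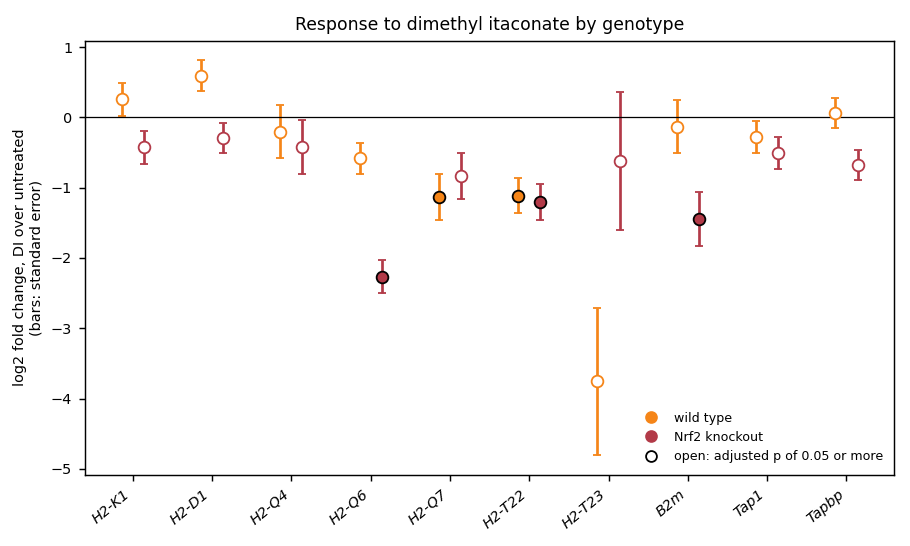
Log2 fold change of each gene with DI in WT (orange) and knockout (red) cells, with a standard error derived from the edgeR F statistic. Filled points have an adjusted p under 0.05. Changes in knockout cells are below 0 for all 10 genes, and H2-Q6 is the gene whose gap between genotypes was called (-1.69 ± 0.32).

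Among other class I and class I-like heavy chains, 20 of 28 listed genes were in the count table and 9 could be tested. DI lowered 6 of these 9 in WT and 4 in knockout cells, where 8.68% and 4.0% of all genes tested were called lower. In WT cells H2-T24 fell from 152 ± 22.5 to 53.9 ± 2.87 CPM (log2 -1.50 ± 0.27, edgeR adjusted p = 0.00301). H2-M3, which presents formylated peptides of bacteria and mitochondria, fell from 138 ± 9.62 to 65.7 ± 6.01 CPM in WT (log2 -1.08 ± 0.22, edgeR adjusted p = 0.00594) and from 165 ± 20.9 to 85.4 ± 0.756 CPM in knockout cells (log2 -0.95 ± 0.21, edgeR adjusted p = 0.0201). Also called in both genotypes were Hfe, which regulates iron uptake and does not present peptides, and H2-M2. Mr1, which presents vitamin B metabolites, was called in WT cells at 4 to 131 counts per library, and Gm7030 in knockout cells. H2-T24 had a log2 change of -0.24 ± 0.26 in knockout cells, and the difference between its responses did not pass (1.26 ± 0.37, edgeR adjusted p = 0.059). The median of the 9 was -1.30 in WT and -0.95 in knockout cells. Without WT DI replicate 1 the 6 calls in WT became 3, and in knockout cells 0 to 2 calls were made without any 1 of the 4 knockout libraries.

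Of 13 loading and trimming genes, 1 was called higher and 1 lower in WT cells, shares near those over all genes (6.51% and 8.68%). There DI raised Bcap31, a receptor that moves class I out of the endoplasmic reticulum (log2 0.83 ± 0.21, edgeR adjusted p = 0.0195) and lowered Nrd1, a peptidase that can make class I ligands (-1.01 ± 0.31, edgeR adjusted p = 0.0467). In knockout cells Nrd1 rose from 163 ± 11.1 to 396 ± 125 CPM (log2 1.28 ± 0.31, edgeR adjusted p = 0.0273), as did Uggt1, which returns misfolded glycoproteins to calreticulin (0.93 ± 0.23, edgeR adjusted p = 0.03). In that genotype 2 of the 13 were called higher and 0 lower, against 4.49% and 4.0% of all genes tested. Tap2, the partner of Tap1, had log2 changes of -0.51 ± 0.38 in WT and -0.89 ± 0.39 in knockout cells (edgeR adjusted p = 0.396 and 0.168). Calr, calreticulin, had -0.29 ± 0.29 and 0.77 ± 0.29 (edgeR adjusted p = 0.526 and 0.113).

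Of 7 immunoproteasome and activator genes, Psmb9, a catalytic subunit, fell in both genotypes, from 67.7 ± 1.57 to 38.1 ± 3.93 CPM in WT (log2 -0.83 ± 0.25, edgeR adjusted p = 0.0458) and from 68.9 ± 3.31 to 31.5 ± 11 CPM in knockout cells (-1.13 ± 0.26, edgeR adjusted p = 0.0204). Psme1, of the activator PA28, fell in WT cells (-0.84 ± 0.25, edgeR adjusted p = 0.0429), and Psme3, of the nuclear activator, rose there (0.82 ± 0.21, edgeR adjusted p = 0.0206). Psmb8 had -0.71 ± 0.22 and -0.62 ± 0.22 in WT and knockout cells (edgeR adjusted p = 0.0506 and 0.105). Of the 7 genes, 1 was called higher and 2 lower in WT cells, against 6.51% and 8.68% of all genes tested. In knockout cells 0 were called higher and 1 lower, against 4.49% and 4.0%.

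Among transcription regulators of class I genes, DI lowered Ezh2, a histone methyltransferase that can silence class I genes, in WT cells from 41.4 ± 7.57 to 19.8 ± 0.634 CPM (-1.06 ± 0.23, edgeR adjusted p = 0.00861). In knockout cells it raised Rfxap, a subunit of the RFX complex that binds class I and class II promoters (1.11 ± 0.27, edgeR adjusted p = 0.0264), and Atf1, which binds cyclic AMP response elements (0.81 ± 0.21, edgeR adjusted p = 0.034). The responses of Rfxap and Ezh2 differed between genotypes by 1.52 ± 0.38 and 1.55 ± 0.32 (edgeR adjusted p = 0.0306 and 0.0142), and neither was called without knockout untreated replicate 1 or 2. Nlrc5 stayed between 31.6 and 41.4 CPM in all libraries, with log2 changes of -0.11 ± 0.22 and 0.01 ± 0.22 (edgeR adjusted p = 0.762 and 0.981). Irf1 had -0.19 ± 0.22 and -0.54 ± 0.22 (edgeR adjusted p = 0.608 and 0.146). Of 19 regulators tested, 0 were called higher and 2 lower in WT cells, against 6.51% and 8.68% of all genes tested. In knockout cells 2 were called higher and 0 lower, against 4.49% and 4.0%.

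The interferon-stimulated genes used for comparison stood beside these counts as follows: DI lowered 12 of 20 in WT cells and 13 of 20 in knockout cells and raised none. Of all genes tested, 8.68% were called lower in WT and 4.0% in knockout cells. Iigp1, an interferon-inducible GTPase, fell from 199 ± 25.5 to 33.7 ± 1.49 CPM in WT (log2 -2.56 ± 0.22, edgeR adjusted p = 2.08e-05) and from 253 ± 4.59 to 65.9 ± 2.64 CPM in knockout cells (-1.94 ± 0.22, edgeR adjusted p = 0.000938). The median log2 change of the 20 was -1.21 in WT and -1.08 in knockout cells. Leaving out 1 knockout library made the 13 calls 5 to 8. Of 10 interferon receptors and kinases none was called in WT by edgeR. There 2 had an unadjusted edgeR p under 0.05, a threshold for which no share over all genes is given here. Usp18, a feedback inhibitor, fell in knockout cells (-1.23 ± 0.28, edgeR adjusted p = 0.0208), the 1 of these 10 genes called there.

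**Figure D5:**
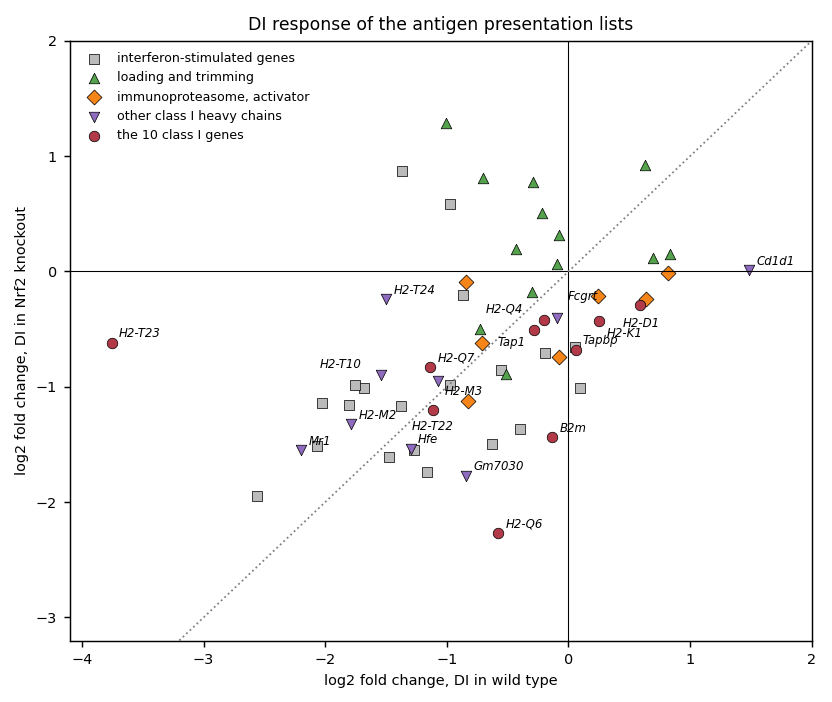
Log2 fold change with DI in WT cells (x axis) against that in knockout cells (y axis) for the 10 class I and loading genes (circles) and 4 fixed lists; the dotted line marks equal change. Most interferon-stimulated genes (squares) and other heavy chains lie to the lower left, H2-K1, Tapbp and B2m lie near 0 in WT cells, and H2-Q6 lies well below the line.

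Of 13 genes of class I surface loss and endoplasmic reticulum quality control that were tested, DI raised Syvn1 (log2 1.01 ± 0.25), Edem1 (0.78 ± 0.21) and Ube2j2 (0.83 ± 0.21), which act in the degradation of misfolded proteins, in WT cells (edgeR adjusted p = 0.0174, 0.0248 and 0.0211). In knockout cells it lowered March1, a ubiquitin ligase known for removing class II molecules (-1.92 ± 0.40, edgeR adjusted p = 0.0145), and Tmem176b, a membrane protein of antigen-presenting cells (-1.37 ± 0.26, edgeR adjusted p = 0.0104). Of the 13 genes, 3 were called higher and 0 lower in WT cells, against 6.51% and 8.68% of all genes tested. In knockout cells 0 were called higher and 2 lower, against 4.49% and 4.0%. Of 4 receptor genes tested, Pilra, known for binding sialylated glycoproteins rather than class I, fell in WT cells. It went from 28 ± 9.40 to 6.70 ± 0.807 CPM there (-2.05 ± 0.30, edgeR adjusted p = 0.000843). In untreated and DI-treated knockout cells Pilra had 41.5 ± 6.03 and 41.0 ± 9.22 CPM. In the lists of loading, immunoproteasome, regulator, interferon receptor and surface loss genes, each of these small counts of called genes became 0 when at least 1 of the libraries was left out, while the fall of Pilra in WT cells was called in all 8 such fits. The call on the difference between its responses was lost without WT untreated replicate 2 or knockout untreated replicate 1.

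The 5 genes whose level over the 8 libraries was most like the mean standardised profile of the 10 genes, among 7343 candidates, were Stom (Pearson r = 0.96), Fuca2 (0.95), Psmb10 (0.95), Man2b2 (0.95) and Atxn1l (0.95). The libraries are shared by both sides of this measure, which is a description without a test. Psmb10, a catalytic subunit of the immunoproteasome, had 74.3 ± 10.8 CPM in WT untreated, 70.4 ± 11.8 in WT DI, 75.0 ± 14.9 in knockout untreated and 44.8 ± 2.75 in knockout DI cells (SD, n = 2). Of the 10 genes themselves, Tapbp (r = 0.91) and H2-Q6 (0.90) lay closest to that mean, to which they contribute, and H2-D1 (0.42) and H2-T23 (0.52) farthest from it.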

How the data were processed

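RNA of 8 macrophage libraries in 4 groups was analysed. The deposited values are whole-number read counts per Ensembl gene, not normalized, made by the authors. STAR, HTSeq, DESeq2 and the build mm10 appear in the submitters' processing notes without versions or settings. The annotation release and the handling of reads that fit several genes are not given in the sources used here. Per the labels' protocols, first strands were primed with a barcoded oligo-dT primer (a run of 15 T) and amplified in 12 PCR cycles, and no molecular identifier is described, so counts are reads and not molecules.

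From the counts, genes were named through GENCODE M21 (21745 of 22165 matched, 420 not), filtered with filterByExpr (minimum count 10; 11079 left), scaled by TMM and tested in R 4.3.3 with the robust quasi-likelihood F-test of edgeR 4.0.16. The fit used all 8 libraries with 1 mean per group, and Benjamini-Hochberg adjustment over all genes tested. An adjusted p under 0.05 was called, with no fold threshold. CPM are counts over the scaled library size. Standard errors were derived as the absolute log2 change divided by the square root of the F statistic of its test. Alternatives were DESeq2 1.42.0, relative log expression scaling, no filter, a replicate block, only the groups compared, H2-Q6 and H2-Q7 summed, each library left out and, added after seeing the data, removal of a trend over the highest number of A in 15 coding bases. The script was tested on simulated counts. The 10 genes and the 8 pathway lists were chosen with earlier results of these data known. From a list, at most 4 called genes a comparison were named, by smallest p. Exceptions chosen after their values were seen are H2-T10, Efr3a, Cd59b, Rab33b and Zbtb22 (shared or overlapping sequence), Mr1, and, as uncalled values, Tap2, Calr, Psmb8, Irf1, Nlrc5 and Psmb10. Promoter sequences are RefSeq's (GRCm38.p6). Some genes of the lists are not reported here.

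Within groups, libraries had a Pearson r of 0.973 to 0.980 over genes and differed by more than counting error (chi-square per degree of freedom 12.8 to 37.9), so none was a copy of another.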

Additional observations from a re-analysis of the deposited data

Results flagged for a closer look

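The response to DI differed between knockout and WT cells, by the interaction term of the edgeR fit, for 1 of the 10 class I and loading genes and 5 genes of the lists beside them. Of all genes tested, 2.59% were called lower and 4.96% higher for the interaction. By list, called higher were 1 of 13 loading and trimming genes and 2 of 19 regulators. So were 1 of 20 interferon-stimulated genes and 1 of 4 receptor genes. Of 9 other heavy chains, 7 immunoproteasome, 10 interferon receptor and 13 surface loss genes, 0 were called. The counts of called genes were not tested against the shares over all genes. For H2-Q6 the log2 response in knockout minus that in WT cells was -1.69 (edgeR adjusted p = 0.00934). For Nrd1 it was 2.29 (edgeR adjusted p = 0.0102), and for Pilra 2.03 (edgeR adjusted p = 0.0121). Ezh2 had 1.55 (edgeR adjusted p = 0.0142), Rfxap 1.52 (edgeR adjusted p = 0.0306) and Xaf1, an interferon-stimulated gene, 1.56 (edgeR adjusted p = 0.0473). The call of H2-Q6 held in all 8 fits that left out a library. The call of Nrd1 was lost without knockout untreated replicate 1 (edgeR adjusted p = 0.0547) or 2 (0.0574), and that of Pilra without WT untreated replicate 2 (edgeR adjusted p = 0.0508) or knockout untreated replicate 1 (0.0651). Ezh2 was not called without WT untreated replicate 2 (edgeR adjusted p = 0.0563), knockout untreated replicate 1 (0.0686) or knockout untreated replicate 2 (0.0723), nor with the A-rich trend removed (edgeR adjusted p = 0.0739). Rfxap was not called in 6 of the 8 fits, all but those without WT untreated replicate 2 or knockout DI replicate 1 (edgeR adjusted p up to 0.123). Xaf1 was not called in 6 of the 8, all but those without WT untreated replicate 1 or knockout DI replicate 1 (edgeR adjusted p up to 0.189), nor with the A-rich trend removed (edgeR adjusted p = 0.171). H2-Q6 is the 1 gene of these 6 whose fall was larger in knockout cells. Xaf1 had 326 ± 123 and 166 ± 30.9 CPM in untreated and DI-treated WT cells and 220 ± 2.25 and 329 ± 115 CPM in knockout cells (SD, n = 2).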

How the results depend on the processing

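Of 700 values of the 10 genes under alternatives, 613 kept direction and side of the threshold, 35 lost the call, 19 gained it and 33 changed sign. With 2 libraries a group, leaving out 1 leaves a lone library assumed to vary like the other groups, and the cause of lost calls was not tested. Over all genes tested, the deviations of replicate 1 from its group mean correlated between groups at r = -0.08 to 0.16. With 2 libraries a group, replicate 2 is the mirror image of replicate 1. Replicates of different groups share only a number. With the replicate block 1674 genes were called in WT and 931 in knockout cells, 845 for the interaction, 67 in untreated cells and 2309 under DI, and 2, 3, 1, 0 and 3 of the 10 genes. The interaction could not be fitted with only the groups compared, since it uses all 4.

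Without the filter 1697 genes were called in knockout cells (940 with it), 1597 for the interaction (836) and 397 in untreated cells (67), where DESeq2 called 191. Of the 10 genes, no filter called 3 for the interaction and 2 in untreated cells. Only the groups compared called 1 in WT cells and 1 under DI, the trend over A-rich coding sequence removed called 4 in WT cells, and the summed pair called 0 for the interaction. Leaving out 1 library gave 804 to 1746 genes called in WT, 104 to 1088 in knockout, 238 to 933 for the interaction, 11 to 81 in untreated cells and 1208 to 2222 under DI, and of the 10 genes 0 to 3, 1 to 3, 1 to 2, 0 to 1 and 1 to 2.

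Log2 values that changed sign were these. With DI in WT cells, leaving out 1 library gave B2m -0.36 to 0.14, Tapbp -0.075 to 0.20, H2-Q4 -0.61 to 0.20. Other reversals were Tapbp -0.11 with the A-rich trend removed. With DI in knockout cells, leaving out 1 library gave H2-T23 -1.15 to 0.35, H2-Q4 -1.15 to 0.070. For the interaction, leaving out 1 library gave H2-Q7 -0.43 to 0.80, H2-T22 -0.49 to 0.23, H2-Q4 -0.94 to 0.28. Other reversals were H2-Q6 0.17 with H2-Q7 added, H2-Q4 0.034, H2-T22 0.15, Tap1 0.15 with the A-rich trend removed. Between genotypes in untreated cells, leaving out 1 library gave H2-K1 -0.18 to 0.16, H2-Q7 -1.19 to 0.028, H2-T22 -0.44 to 0.28, H2-T23 -3.46 to 0.0068, H2-D1 -0.13 to 0.14, H2-Q4 -0.073 to 0.22, B2m -0.15 to 1.38. Other reversals were H2-K1 0.00040 with DESeq2, H2-K1 0.00039 with relative log expression scaling, H2-D1 -0.020, Tap1 -0.014 with the A-rich trend removed. Between genotypes under DI, leaving out 1 library gave H2-Q4 -0.86 to 0.36, Tap1 -0.41 to 0.064. Other reversals were H2-Q4 0.083, Tap1 0.14 with the A-rich trend removed. Of these, H2-Q6 alone was called in the reported fit.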
